A study of Mus musculus with 3 samples.

Results

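Integrins are the receptors through which a cell grips its surroundings, and each receptor pairs 1 alpha with 1 beta subunit. The 9 subunit genes described here, Itga1, Itga3, Itga5, Itga6, Itga7, Itgav, Itgb1, Itgb3 and Itgb5, were chosen by symbol, and all 9 were among the 15403 named genes of the deposited table. RNA was recovered by immunoprecipitation and sequenced (RIP-seq, in which RNA comes down with the protein that an antibody binds) from C2C12, mouse myoblasts that fuse into multinucleated myotubes when serum is lowered. The 3 libraries were made with an anti-HuR antibody, an anti-YB1 antibody and control IgG, 1 library each, and the labels give all 3 as total extract of these cells taken at day 2 after the switch to differentiation medium with 2% horse serum. The extract on the beads was 500 µg, and the library columns carry a tag (siCtl) that the labels do not explain. With 1 library per antibody the spread between replicates is unknown, so no test was possible and no p-value is given for the ratios.

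The beta 1 chain, encoded by Itgb1, pairs with most of the alpha chains in muscle. With Itga7 it forms the laminin receptor of differentiated skeletal muscle, with Itga5 the fibronectin receptor, with Itga3 or Itga6 other laminin receptors, and with Itga1 a receptor for collagen and laminin. The alpha v chain, encoded by Itgav, pairs with the beta 1, beta 3 (Itgb3) or beta 5 (Itgb5) chain and binds vitronectin, fibronectin and related matrix proteins. HuR, encoded by Elavl1, is an RNA-binding protein with a preference for U-rich and AU-rich stretches, often in 3′ UTRs. YB-1, encoded by Ybx1, is a cold-shock domain protein that binds many mRNAs.

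Levels are normalized counts, the read count divided by the authors' size factor for the library. The libraries held 24722166 (HuR), 39038366 (YB-1) and 10617029 (IgG) reads in named genes, and 1 read was worth 0.862 normalized counts in HuR, 0.531 in YB-1 and 2.29 in IgG. The bracketed intervals after a fold are exact 95% Clopper-Pearson intervals and cover counting error only. In the IgG library 20.8% of reads fell in 1368 genes whose level there was 8-fold or more above that in HuR and in YB-1. All 8 endothelial markers were highest in the IgG library and lower by more than 2-fold in both antibody libraries, with a summed level of 1.72 in HuR, 27.1 in YB-1 and 12099.8 in IgG. Of these markers, 7 were at 0 reads in HuR and 2 (Emcn and Vwf) in YB-1. All 6 adipocyte markers were highest in IgG too, summing to 10.3 in HuR, 1.06 in YB-1 and 6951 in IgG, with 5 at 0 reads in each antibody library. Of 7 leukocyte markers, 6 were highest in IgG, with sums of 23.3 in HuR, 96.7 in YB-1 and 679 in IgG, and 6 were at 0 reads in HuR and 5 in YB-1. The 4 platelet markers summed to 128 in HuR, 146 in YB-1 and 66.5 in IgG. The 8 skeletal muscle markers were detected in every library and summed to 701865 in HuR, 708435 in YB-1 and 1062846 in IgG. Of these 8, 5 stood 2-fold or more above IgG in each antibody library, and 2 stood below it, Ckm (11.0-fold in HuR and 6.03-fold in YB-1) and Acta1 (6.68-fold in HuR and 3.64-fold in YB-1). The endothelial, adipocyte and leukocyte markers are not those of a myoblast line, so the library labelled IgG goes against its label in part, and its source could not be checked further. Every fold over IgG rests on that library, and HuR over YB-1, which takes no reads from it, is given beside them. The part of the non-muscle transcripts in the folds over IgG was not tested.

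Integrin mRNAs made up 0.408% of the reads in the HuR library (0.405 to 0.410), 0.272% in YB-1 (0.271 to 0.274) and 0.140% in IgG (0.138 to 0.142). The higher share in HuR than in YB-1 came from Itgb1, since the summed share of the other 8 was lower in HuR. Among those 8, Itgav went the other way, with a log2 HuR over YB-1 ratio of 1.58 scaled to total reads. Itgb3, at 0.032 on that scaling, did not differ beyond counting error (fold of 1.05, 0.964 to 1.15, on the authors' scaling). Without Itgb1, the other 8 subunits held 0.135% of reads in HuR (0.134 to 0.137), 0.158% in YB-1 (0.156 to 0.159) and 0.0862% in IgG (0.0844 to 0.0880). Within the 9 subunits, Itgb1 took 66.9% of the reads in HuR (66.6 to 67.2), 42.1% in YB-1 (41.8 to 42.4) and 38.3% in IgG (37.5 to 39.1). Itga7 took 18.4% in HuR, 36.5% in YB-1 and 35.6% in IgG. The shares within the 9 subunits do not depend on how the libraries are scaled to each other. Setting shares of all reads side by side amounts to scaling to total reads. Ribosomal recentring adds 0.75 to each log2 ratio of HuR over YB-1, so the lower share of the other 8 in HuR rests on the scaling.

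**Figure D1:**
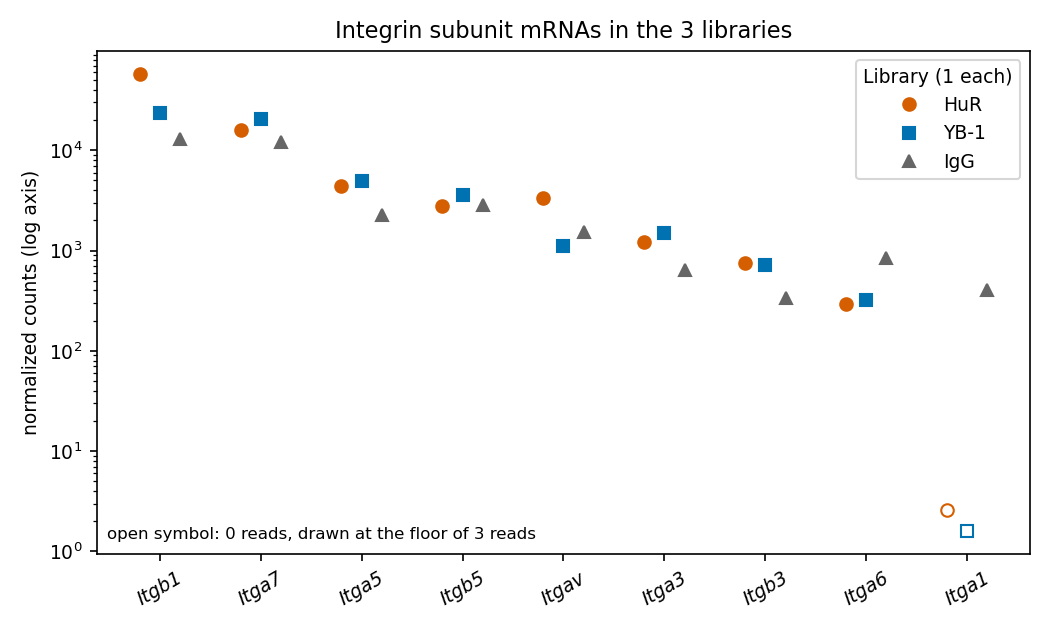
Normalized counts on a log axis for the 9 integrin subunits, ordered by their mean over the libraries, with 1 point for each of the HuR, YB-1 and IgG libraries. Itgb1 and Itgav stood highest in the HuR library by more than counting error, Itga6 and Itga1 stood highest in IgG, and the open symbols mark the 0 reads of Itga1 in HuR and YB-1.

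Itgb1, on chromosome 8 from 128685654 to 128733200 (GRCm38, plus strand, 16 exons), was the most abundant subunit mRNA. It stood at 58128 normalized counts in HuR, 23757 in YB-1 and 13048 in IgG. Against IgG it was 4.46-fold higher in HuR (4.34 to 4.58) and 1.82-fold higher in YB-1 (1.77 to 1.87), and it was 2.45-fold higher in HuR than in YB-1 (2.42 to 2.48). In HuR over IgG, 683 of 13024 genes had a ratio at or above that of Itgb1, against 2710 of 13022 in YB-1 over IgG and 1756 of 11868 in HuR over YB-1. When ratios were recentred on ribosomal protein genes, the YB-1 over IgG log2 ratio of Itgb1 turned from 0.86 to -0.33, whereas the 2 ratios with HuR on top stayed above 0. Myog, a skeletal muscle marker, had a log2 ratio of HuR over YB-1 of 2.33, against 1.29 for Itgb1. Elavl1 itself had 2.28 and Ybx1 had -0.26.

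Itga7, the muscle laminin receptor chain, was the most abundant alpha subunit mRNA. Its gene occupies chromosome 10 (128933818 to 128958282, plus strand), and its exons overlap those of the antisense gene Mettl7b by 6 nt. Its level was 15992 normalized counts in HuR, 20587 in YB-1 and 12132 in IgG. HuR was 1.32-fold above IgG (1.28 to 1.36) and YB-1 1.70-fold above IgG (1.65 to 1.75), though both log2 ratios turned negative after ribosomal recentring, to -0.092 and -0.44. The order of its level was thus YB-1, HuR and IgG on the authors' scaling, unlike that of Itgb1. Measured against Itga7 within each library, which removes the scaling, Itgb1 was 3.15-fold higher in HuR than in YB-1 (3.08 to 3.22, normal approximation on log counts) and 3.38-fold higher in HuR than in IgG (3.24 to 3.52). On the same measure it was 1.07-fold above its IgG value in YB-1 (1.03 to 1.12). These folds rest on Itga7 as the reference. On the authors' scaling its log2 HuR over YB-1 ratio of -0.36 was close to the lowest among the subunits (-0.37).

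Itga5, the fibronectin receptor chain on chromosome 15 (103344286 to 103366763, minus strand), stood at 4385 normalized counts in HuR, 4893 in YB-1 and 2288 in IgG. Against IgG it was 1.92-fold higher in HuR (1.79 to 2.05) and 2.14-fold higher in YB-1 (2.00 to 2.29). Fn1, which encodes its ligand fibronectin, had log2 ratios of 1.21 for HuR over IgG and 1.45 for YB-1 over IgG, beside 0.94 and 1.10 for Itga5. Itga3, a laminin receptor chain on chromosome 11 (95044474 to 95076801, minus strand), stood at 1223, 1506 and 647 normalized counts in HuR, YB-1 and IgG. Against IgG it was 1.89-fold higher in HuR (1.66 to 2.16) and 2.33-fold higher in YB-1 (2.06 to 2.64). On the authors' scaling both alpha chains were therefore higher in each antibody library than in IgG and slightly lower in HuR than in YB-1, but after ribosomal recentring the YB-1 over IgG log2 ratio of Itga5 turned to -0.10 and the HuR over YB-1 ratios of Itga5 and Itga3 turned to 0.59 and 0.45.

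Itgav lies on chromosome 2 from 83724397 to 83806916 (plus strand, 30 exons). On the authors' scaling it was the subunit whose antibody libraries lay on opposite sides of IgG by more than counting error. Its level was 3380.2 normalized counts in HuR, 1101 in YB-1 and 1533 in IgG. HuR was 2.21-fold above IgG (2.03 to 2.40), whereas YB-1 was 1.39-fold below IgG (1.27 to 1.52). HuR was 3.07-fold above YB-1 (2.91 to 3.24), a ratio that 1256 of 11868 genes equalled or exceeded. Against Itga7 in the same library, Itgav was 3.95-fold higher in HuR than in YB-1 (3.74 to 4.18), 1.67-fold higher in HuR than in IgG (1.53 to 1.83) and 2.36-fold lower in YB-1 than IgG (2.16 to 2.59). The directions of Itgav held under each scaling tried. After ribosomal recentring, 3 more subunits had HuR above IgG and YB-1 below it: Itgb1 (log2 ratios of 1.66 and -0.33), Itga5 (0.45 and -0.10) and Itgb3 (0.68 and -0.10).

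The beta 5 and beta 3 chains are partners of the alpha v chain, as is beta 1. Itgb5, on chromosome 16 (33829665 to 33949338, plus strand), stood at 2776 normalized counts in HuR, 3580.0 in YB-1 and 2820.2 in IgG. Its HuR over IgG fold was 0.984 (0.921 to 1.05), an interval that includes 1, and its sign depended on the scaling: the log2 ratio was -0.023, but 0.17 scaled to total reads and 0.14 recentred on the median of all genes. YB-1 was 1.27-fold above IgG (1.19 to 1.35), which turned to a log2 ratio of -0.85 after ribosomal recentring. Itgb3, on chromosome 11 (104608000 to 104670476, plus strand), stood at 754 normalized counts in HuR, 718 in YB-1 and 335 in IgG. Against IgG it was 2.25-fold higher in HuR (1.89 to 2.70) and 2.14-fold higher in YB-1 (1.81 to 2.56), the second of which turned to a log2 ratio of -0.10 after ribosomal recentring. On the authors' scaling HuR and YB-1 differed by less than counting error for Itgb3, with a fold of 1.05 (0.964 to 1.15). Against Itga7 in the same library, Itgb3 was 1.35-fold higher in HuR than in YB-1 (1.24 to 1.48). That fold reflects the low log2 HuR over YB-1 ratio of the reference Itga7 (-0.36 on the authors' scaling).

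Itga6 and Itga1 stood below IgG in HuR and in YB-1 by 2-fold or more. Itga6, a laminin receptor chain on chromosome 2 (71745616 to 71858416, plus strand), stood at 294 normalized counts in HuR, 321 in YB-1 and 844 in IgG. HuR was 2.87-fold below IgG (2.47 to 3.34), and YB-1 was 2.63-fold below IgG (2.30 to 2.995). On the authors' scaling HuR and YB-1 did not differ beyond counting error for Itga6, with a fold of 0.915 (0.798 to 1.05). Against Itga7 in the same library, Itga6 was 1.18-fold higher in HuR than in YB-1 (1.03 to 1.35). That fold reflects the low log2 HuR over YB-1 ratio of the reference Itga7 (-0.36 on the authors' scaling). Itga1, the collagen receptor chain on chromosome 13 (114953096 to 115101964, minus strand), had 0 reads in HuR, 0 in YB-1 and 175 in IgG, which is 402 normalized counts. With 3 reads per library as the floor for a library at 0, it was below IgG by at least 155-fold in HuR and by at least 252-fold in YB-1, and no ratio between HuR and YB-1 could be formed. Of 6900 genes with at least 175 reads in IgG, 89 had 0 reads in both antibody libraries. Exons of Itga1 overlap 451 nt of Gm49395 on the same strand. Also 2-fold or more below IgG in both antibody libraries were all 8 endothelial, all 6 adipocyte and 5 of 6 measured leukocyte markers. Ckm and Acta1 of the 8 skeletal muscle markers were below it too, while 5 of the 8 were above. Among all genes, 31.1% were below IgG by that fold in HuR and 32.8% in YB-1. The endothelial median log2 ratios were -8.48 in HuR and -9.78 in YB-1, beside -1.52 and -1.39 for Itga6. The part of these markers in the ratios of Itga6 and Itga1 was not tested.

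Compared per kilobase of annotated transcript, Itgb1 led in every library, with 15237 normalized counts per kb in HuR, 6227 in YB-1 and 3420.1 in IgG. Itga7 followed with 3978 per kb in HuR, 5121 in YB-1 and 3018 in IgG. The gap between these neighbours was thus wide in HuR and narrow in the other libraries. Itga5 and Itgb5 came next, at 1001 and 908 per kb in HuR and 1117 and 1171 in YB-1. The per-kb order of this pair in YB-1 rests on the annotated lengths (4382 and 3056 nt). Before division by length Itga5 stood above Itgb5 in HuR and in YB-1, and transcript use was not measured. In IgG, Itgb5 had 923 per kb and Itga5 had 522. Itgav had 479 per kb in HuR, 156 in YB-1 and 217 in IgG, and therefore stood above Itga3 in HuR (479 against 260) but below it in YB-1 (156 against 321).

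Over the 9 subunits, 3 (Itgb1, Itgb3 and Itgav) stood 2-fold or more above IgG in HuR and 2 stood 2-fold or more below it. Among all 13024 genes with this ratio, 18.9% stood above IgG by that fold and 31.1% below it. The median log2 ratio of the 9 was 0.92, beside -0.16 for all genes. In YB-1 over IgG, 3 (Itga3, Itga5 and Itgb3) passed this fold upward and 2 downward, where the shares of all genes were 17.0% and 32.8%. The median was 0.76 beside -0.17 for all genes. The counts rest on the scaling: recentred on ribosomal protein genes, 1 subunit passed 2-fold upward and 2 downward in HuR over IgG, and 0 upward and 3 downward in YB-1 over IgG, where the median turned to -0.44. The shares of all genes then became 11.3% upward and 40.8% downward in HuR over IgG, and 2.07% and 60.3% in YB-1 over IgG. With total reads or median recentring, 5 subunits passed 2-fold upward in HuR over IgG, beside 23.2% and 22.4% of all genes. Itga1, 1 of the 2 below IgG, passed the filter on low values through its IgG reads alone and so had to be lower. Both sets of ratios share the IgG library and are not independent.

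**Figure D2:**
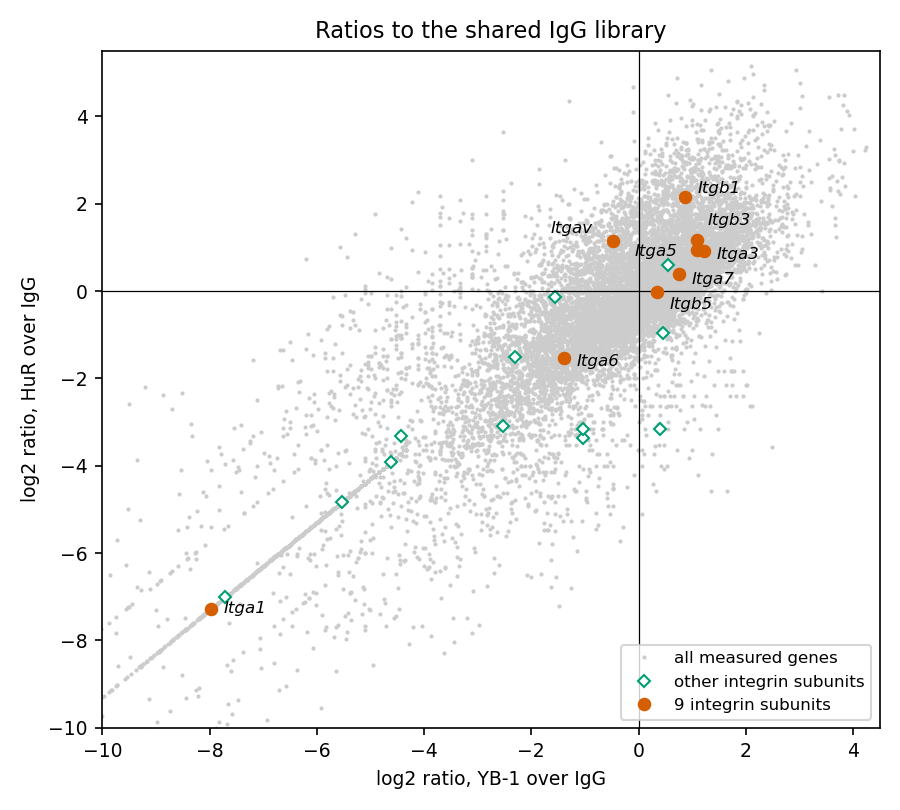
Log2 ratio of HuR over IgG (vertical) against YB-1 over IgG (horizontal) for all measured genes in grey (genes below -10 lie outside the axes), the 9 integrin subunits and the other integrin subunits with a ratio, on the authors' scaling. Itgav lies in the upper left, at -0.48 and 1.14, Itgb1 lies highest at 2.16, and Itga1, with its 0 reads set to the floor, lies far down the diagonal.

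In HuR over YB-1, which takes no reads from IgG, 8 subunits had a ratio. Itgav and Itgb1 passed 2-fold upward, and 0 passed it downward. Among all 11868 genes with this ratio, 19.3% passed it upward and 10.6% downward, so 2 of 8 is near the share of all genes. The other 6 lay between -0.37 (Itgb5) and 0.072 (Itgb3) on the log2 scale, inside the middle 50% of all genes, which ran from -0.55 to 0.72. The median of the 8 was -0.14, beside -0.057 for all genes. It turned to 0.61 after ribosomal recentring, which adds 0.75 to each of these log2 ratios.

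**Figure D3:**
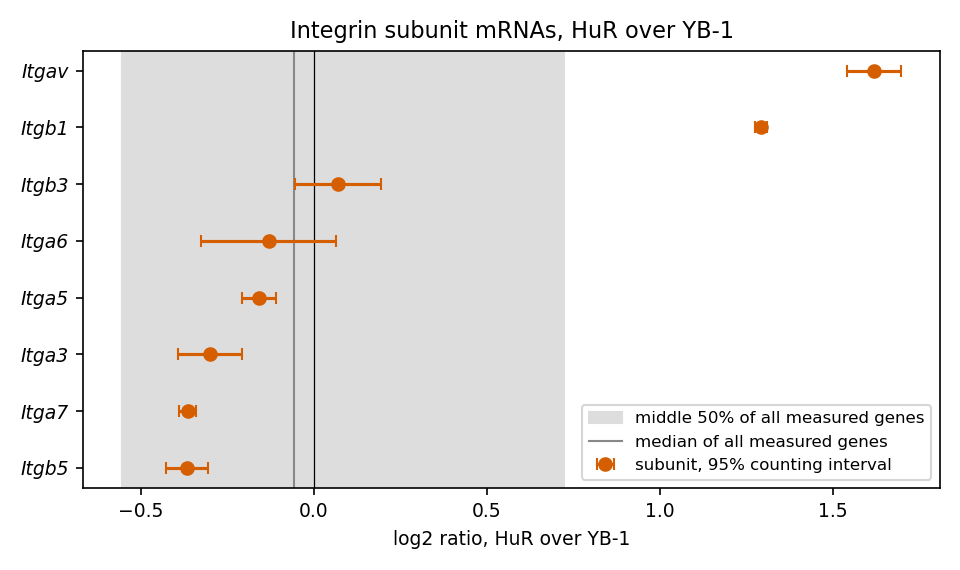
Log2 ratio of HuR over YB-1 for the 8 subunits with a ratio, on the authors' scaling, with 95% counting intervals, over the median and the middle 50% of all measured genes. Itgav (1.62) and Itgb1 (1.29) lie to the right of the shaded range, and the other 6 lie inside it.

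Because HuR is known for U-rich and AU-rich sequence, the 3′ UTRs of the 9 subunits were read from 1 annotated transcript per gene (GENCODE M21, GRCm38, the coding transcript with the longest coding sequence). The AU-rich pentamer ATTTA was counted on the sense strand with overlaps allowed, and the stretch of 30 bases with the most T was located. The 3′ UTR of Itgav was 3581 nt long and held 19 ATTTA, where 0.990% of 1010 measured genes with a 3′ UTR within 20% of that length held as many (median 6). That of Itgb1 was 1112 nt long and held 2, as many or more being held by 49.9% of 1516 genes of like length. The 2 subunits with the highest HuR over YB-1 ratios therefore differed in this motif. Both had a T-rich stretch: up to 26 T in 30 bases in Itgav, matched or exceeded by 11.2% of genes of like length, and 22 in Itgb1, matched or exceeded by 17.2%. Itga7 (428 nt, 1 ATTTA, at most 16 T in 30), Itga5 (983 nt, 2 ATTTA, at most 14 T) and Itga3 (1134 nt, 1 ATTTA, at most 14 T) had less T-rich stretches, which 56.6%, 96.5% and 97.2% of genes of like length equalled or exceeded. Itgb5 and Itga6 had T-rich stretches without a high ratio. The 3′ UTR of Itgb5, 321 nt long, held up to 19 T in 30 bases, equalled or exceeded by 16.5% of genes of like length, at a log2 HuR over YB-1 ratio of -0.37. That of Itga6, 756 nt long, held up to 21 T, equalled or exceeded by 17.3%, a share close to that of Itgb1, at a ratio of -0.13.

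The T-richest 30 bases of 6 of these 3′ UTRs are shown, so that the T-rich stretches of Itgav and Itgb1, high in HuR over YB-1, can be set beside those of Itga6, Itgb5, Itga7 and Itga3, whose ratios lay below the median of all genes. They are written 5′ to 3′ as DNA on the strand of the gene, from the GENCODE transcripts, and capitals mark runs of at least 5 T. In GRCm38 they lie at chr2:83806569-83806598 (plus, Itgav), chr8:128732843-128732872 (plus, Itgb1), chr2:71856611-71856640 (plus, Itga6), chr16:33949094-33949123 (plus, Itgb5), chr10:128958247-128958276 (plus, Itga7) and chr11:95045552-95045581 (minus, Itga3).
Itgav: cTTTTTTTTTTTTgtttgtttgTTTTTTTT
Itgb1: cttattttaccTTTTTTTTTTTctttaatt
Itga6: tttgtttgtatatgatatttaTTTTTTTct
Itgb5: cTTTTTccagttgatcgTTTTTTTTTctat
Itga7: gtggttttgtctatttattaaaaagtattt
Itga3: ctcccttccttcctatttatcataaattat
A window of the Itgav 3′ UTR that holds 2 ATTTA, the most in any 30 bases there, at chr2:83805557-83805586 on the plus strand, is shown with that motif in capitals.
Itgav: tgtaATTTAccaataattaacATTTAtttc
These are matches of letters in an annotated sequence, and no binding position was measured.

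Across the 10761 measured genes with an annotated 3′ UTR, HuR over YB-1 was higher the more ATTTA the 3′ UTR held. The median log2 ratio was -0.37 for 3560 genes with none and -0.13 for 3418 genes with 1 to 2. It was 0.23 for 2108 genes with 3 to 5, 0.60 for 1047 with 6 to 9 and 0.90 for 628 with 10 or more. The length of the 3′ UTR grew along the same classes, from a median of 362 nt to one of 4434 nt, and motif number and length were not separated in these classes. Itgav, at 1.62, lay inside the middle 50% of its class (0.20 to 1.74), whereas Itgb1, at 1.29, lay above that of genes with 1 to 2 ATTTA (-0.54 to 0.51). Itga6 had 4 ATTTA in 756 nt and a ratio of -0.13, inside its class (-0.30 to 1.02). Of 1275 genes of like length, 8.55% held as many, and it had 5.29 ATTTA per kb, beside 5.31 in Itgav. Itgb3 had 2 in 3331 nt, where 89.4% of genes of like length held as many. Itga1 had the longest 3′ UTR of the 9, at 6994 nt with 18 ATTTA, and 22.4% of 205 genes of like length held as many. CATC, a sequence reported for YB-1, was present in 8 of the 9 3′ UTRs when searched in the same way, beside 83.7% of all measured genes, with 2 in Itgb1, 13 in Itgav and 0 in Itgb5. The medians of genes of like length were 4, 12 and 1.

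**Figure D4:**
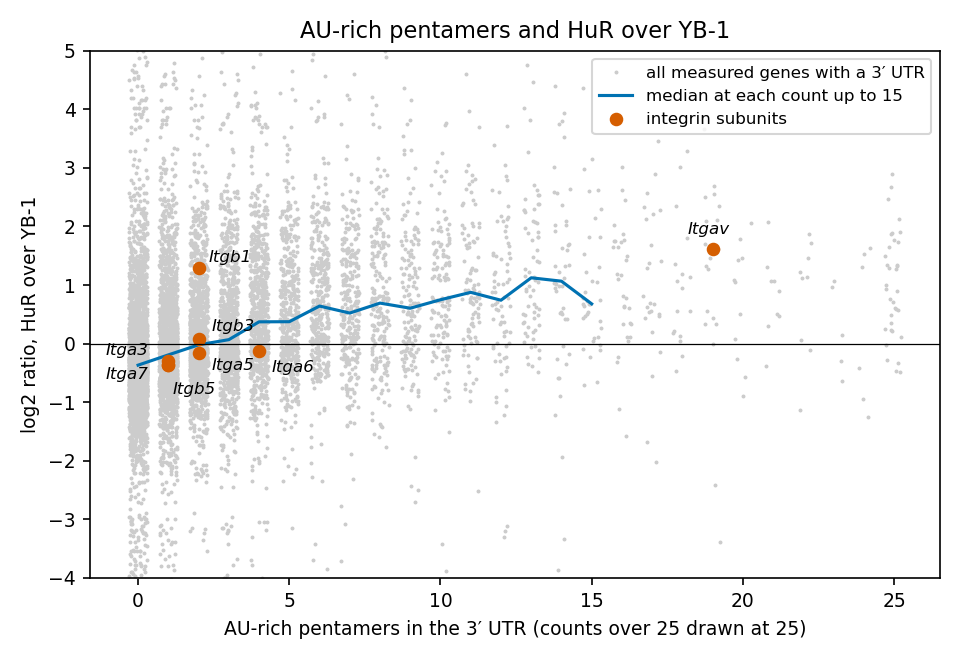
Log2 ratio of HuR over YB-1, on the authors' scaling, against the number of AU-rich pentamers in the 3′ UTR for all measured genes (grey, spread sideways for visibility, with the median at each count) and the 8 integrin subunits with a ratio. Itgav has 19 motifs and a ratio of 1.62, and Itgb1 stands at 1.29 with only 2.

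The genes nearest to Itgb1 in the pair of ratios to IgG were Sirpa, Sema3a and Snx12, at distances of 0.012, 0.020 and 0.039 log2 units over the 3 libraries, among 11144 genes. Those nearest to Itga7 were Cc2d1a, Acap3 and Nop2, at 0.0063, 0.017 and 0.020. Sirpa had 1275 normalized counts in HuR, 518 in YB-1 and 287 in IgG, and Cc2d1a had 1063 in HuR, 1365 in YB-1 and 803 in IgG.

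Most other integrin subunits were scarce in the antibody libraries. Of 17 further subunits looked for, 15 were in the table, and they summed to 1660 normalized counts in HuR, 881 in YB-1 and 2731 in IgG. In HuR 8 of the 15 had 0 reads, and in YB-1 7, whereas in IgG none did. Itgb6, an epithelial partner of the alpha v chain, made up most of this level, with 1422 normalized counts in HuR, 533 in YB-1 and 1563 in IgG. Like Itgav it was higher in HuR than in YB-1, with a log2 ratio of 1.42. Itga4, a receptor chain for VCAM-1 and fibronectin, stood at 141 in HuR, 138 in YB-1 and 94.1 in IgG. Itga9 had 0 reads in HuR, 0 in YB-1 and a level of 333 in IgG, as did Itga8 (73.4 in IgG) and Itgb8 (39.0 in IgG). Itgb4, the laminin receptor chain of epithelia, stood at 25, 37.2 and 213, Itga10 at 14.7, 73.9 and 151, and Itga11 at 40.5, 23.4 and 115 in HuR, YB-1 and IgG. The leukocyte chains were low, with 3.45 in HuR, 0 in YB-1 and 34.4 in IgG for Itgam, and 12.9 in HuR, 34.5 in YB-1 and 25.2 in IgG for Itgb2. Itgb7 (0 in HuR, 30.3 in YB-1 and 22.9 in IgG) and Itgae (0 in HuR, 11.2 in YB-1 and 22.9 in IgG) were as low.

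The counts in the lists that follow stand beside the same shares of all genes, 18.9% above and 31.1% below IgG in HuR, and 17.0% above and 32.8% below in YB-1. For HuR over YB-1 these shares were 19.3% upward and 10.6% downward. Of 12 measured genes for proteins that bind integrin tails, 0 stood 2-fold or more above IgG in HuR and 4 below it, with a median log2 ratio of 0.29. In YB-1, 1 stood above IgG by that fold and 4 below it, with a median of 0.55. Both medians turned negative after ribosomal recentring, to -0.21 and -0.65. Tln1, which encodes talin 1, the activator of integrins, had log2 ratios of 0.54 for HuR over IgG and 0.61 for YB-1 over IgG, and Flna, which encodes filamin A, had 0.64 and 0.86. Flnc, the muscle filamin and the most abundant of them, was lower than in IgG in both, at -1.62 and -1.45. Between HuR and YB-1, 0 of the 12 differed by 2-fold, and all but Dab2 were below 0, with a median of -0.17 that turned to 0.58 after ribosomal recentring. Dab2 was named after its value was seen.

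Among 22 focal adhesion scaffold and kinase genes, 8 stood 2-fold or more above IgG in HuR and 3 below it, against 7 and 2 in YB-1. Their medians were 0.75 and 0.82, and ribosomal recentring left 0.26 and -0.38. Zyx, which encodes the stress-fibre protein zyxin, stood at 16909 normalized counts in HuR, 20421 in YB-1 and 6526 in IgG. Actn4, a non-muscle alpha-actinin, had log2 ratios of 0.99 and 1.04, and Tns1, which encodes tensin 1, had -1.09 and -0.89. Set against YB-1, 1 gene of the 22 passed 2-fold upward in HuR and 1 downward. The higher one was Vasp, which encodes an actin-filament elongation factor, with 9593 in HuR, 4078 in YB-1 and 2084 in IgG. The lower one was Lims2, an adaptor that binds integrin-linked kinase, at 90.5 in HuR, 270 in YB-1 and 574 in IgG. Both were named after their values were seen.

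Of 27 ligand mRNAs with a ratio, 7 stood 2-fold or more above IgG in HuR and 9 below it, against 4 and 10 in YB-1, with medians of -0.65 and -0.34. Lama4, a laminin chain at 0 reads in HuR and YB-1, passed the filter through IgG alone. Hspg2, which encodes perlecan, had log2 ratios of 0.15 and 0.0029, and Col3a1 0.27 and 0.22, all of which are below 0 after ribosomal recentring. For HuR over YB-1, 2 of 26 passed 2-fold upward, a smaller share than the 19.3% of all genes, namely Thbs1 at 1.17 and Edil3 at 1.77, both named after their values were seen. Of 10 lateral partners in the membrane, 5 stood 2-fold or more above IgG in HuR and 4 in YB-1, with 1 below it in each (Cav1, which encodes caveolin 1, at -2.53 and -2.58). The tetraspanin Cd81 stood at 74040.3 normalized counts in HuR, 16119 in YB-1 and 5544 in IgG, and the tetraspanin Cd63 at 41085 in HuR, 32996 in YB-1 and 10523 in IgG. Bsg, which encodes basigin, had log2 ratios of 0.87 and 1.00. In HuR over YB-1, 3 of the 10 passed 2-fold upward, beside 19.3% of all genes, namely Cd9 at 3.07, Cd81 at 2.20 and Cd47 at 1.43. The tetraspanins Cd82 and Cd151 had log2 ratios of -0.63 and -0.40, both of which turn positive after ribosomal recentring, and the median of the 10 was -0.043. Cav1, Cd9, Cd47, Cd82, Cd151 and Lama4 were named after their values were seen.

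**Figure D5:**
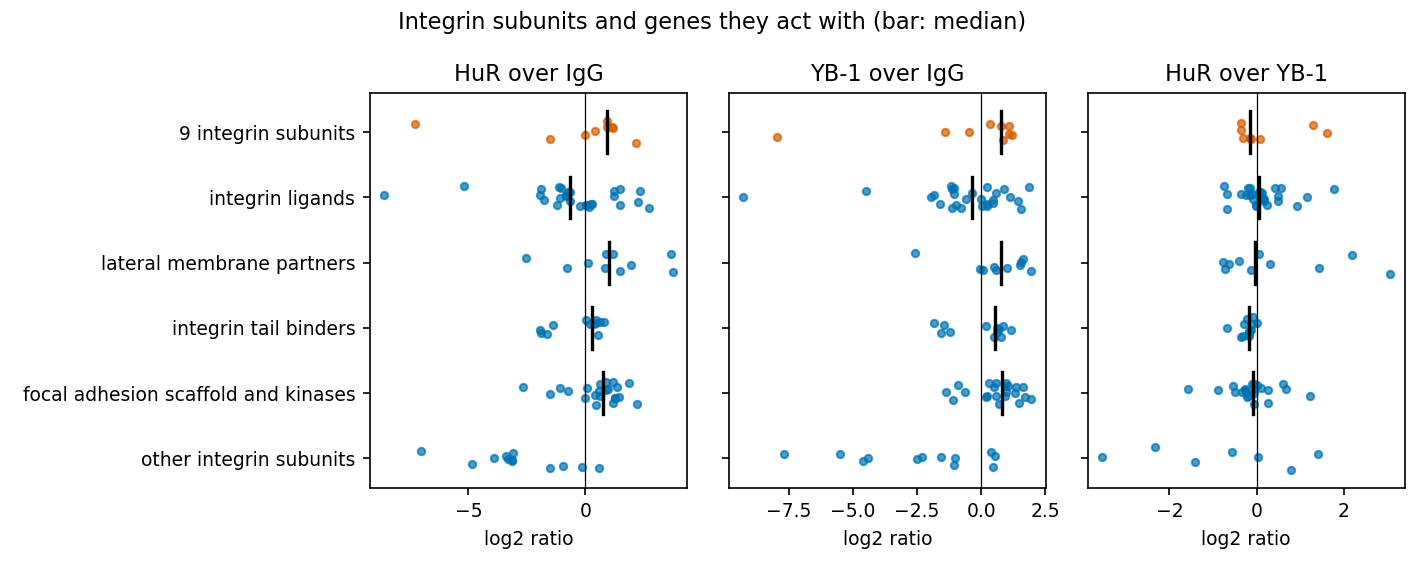
Log2 ratios on the authors' scaling for the 9 integrin subunits and 5 lists of genes that act with them, in HuR over IgG, YB-1 over IgG and HuR over YB-1, with a bar at the median of each list but the last, where 4 subunits passed the filter through IgG alone or nearly so; the horizontal scale differs between panels. In HuR over YB-1 the tail binders run from -0.69 to 0.0022, where Itgav and Itgb1 lie at 1.62 and 1.29. The ligand Lama4, at -8.60 and -9.29 with its 0 reads set to the floor, lies furthest left in both ratios to IgG.

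In the authors' deposited table, which compares YB-1 with IgG, the moderated log2 fold change of the subunits ran from 0.99 for Itga3, with a standard error of 0.86, to -1.06 for Itga6, with a standard error of 0.96. The adjusted p in the authors' deposited table was 0.857 for Itgb1, 0.911 for Itgb5, 0.916 for Itgav and 0.845 for the other 6 (DESeq2, 1 library per antibody). No gene passed an adjusted p of 0.05 there (0 of 15403), 213 had an unadjusted p under 0.05 in the authors' deposited table, and none of the 9 subunits was among these.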

How the data were processed

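The submitters' processing notes name TopHat2 2.0.10 with HTSeq 0.6.1, then DESeq2, on mm10 (GRCm38). The strand setting and parameters are not stated there, so reads of overlapping or antisense genes cannot be told apart. The deposited table holds the authors' normalized signal per gene (count over size factor) and their mean. For YB-1 against IgG it also holds the authors' log2 fold change (moderated and not), standard error, Wald score (not used here) and raw and adjusted p-value. Its 25 rows with a calendar date for a symbol were left out, which held 0.304% (HuR), 0.190% (YB-1) and 0.123% (IgG) of reads. Whole reads were recovered from 100% of values (within 0.01 read). A count model on them was not fitted, as 1 library per antibody leaves no spread to estimate.

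Ratios are unmoderated ratios of normalized counts. They needed a mean of 10 or more (over the 3 libraries for ratios to IgG, over HuR and YB-1 for theirs), which all 9 subunits passed except Itga1 in HuR over YB-1. A library at 0 was set to 3 reads, and no ratio was formed where both had 3 or fewer. The ratio script was tested on simulated data. Python 3.11.15, SciPy 1.17.1, pandas 2.3.3 and matplotlib 3.10.9 were used. All 9 subunits are named, the 3 genes of highest mean in each list, and the measured other subunits. The members and lists were chosen with earlier results of these data known.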

Additional observations from a re-analysis of the deposited data

How the results depend on the processing

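Each scaling shifts all ratios of a comparison alike. Total reads add 0.19 to HuR over IgG and 0.23 to YB-1 over IgG, and ribosomal recentring on 78 genes shifts HuR over IgG by -0.49, YB-1 over IgG by -1.20 and HuR over YB-1 by 0.75. Among all genes past 2-fold, the share that was higher changed with it to 21.7% (37.8% on the authors' scaling) in HuR over IgG, to 3.32% (34.1%) in YB-1 over IgG and to 90.9% (64.4%) in HuR over YB-1. Total reads gave 44.6% in YB-1 over IgG. Subunits at least 2-fold higher in HuR than in IgG numbered 5 with total reads, with median recentring or at a fold of 1.5, and 1 with ribosomal recentring, against 3. Their median of 0.92 became 1.11 with total reads and 0.43 with ribosomal recentring. In YB-1 over IgG 3 became 0 with ribosomal recentring or the authors' moderated fold, and 5 at a fold of 1.5. With total reads or median recentring 3 became 4 there. Where the counting bound had to pass 2-fold, 2 subunits remained higher in each ratio to IgG, against 3. The median of 0.76 in YB-1 over IgG became 1.00 with total reads and 0.93 with median recentring. It became 0.63 with the moderated fold and -0.44 with ribosomal recentring. It was 0.67 when scaled to reads outside genes 8-fold above both others in IgG, an alternative chosen after seeing the data. In HuR over YB-1 the counts did not change under any alternative run, and the median of -0.14 turned to 0.61 with ribosomal recentring. Single subunits that turned sign with it were Itga7 (-0.092) in HuR over IgG, Itga5 (-0.10), Itgb3 (-0.10), Itga7 (-0.44), Itgb1 (-0.33) and Itgb5 (-0.85) in YB-1 over IgG, and Itga3 (0.45), Itga5 (0.59), Itga6 (0.62), Itga7 (0.39) and Itgb5 (0.38) in HuR over YB-1. Itgb5 in HuR over IgG turned to 0.17 with total reads and 0.14 with median recentring. The turns follow from the shifts. The filters and the floor of 1 read changed no count of subunits by over 1.5 times. The IgG library has the fewest reads. Among subunits with reads in every library, Itgb3 (146 reads in IgG) had the widest log2 interval in both ratios to IgG, and Itga6 in HuR over YB-1. The intervals of Itga1 (175 reads in IgG) are open at an end because it had 0 reads in HuR and YB-1. No paired analysis was possible because each antibody has 1 library.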
